A study of Homo sapiens with 2 samples.

Results

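The genes described here are 49 genes of cholesterol and fatty acid metabolism, taken from a fixed list of gene symbols and kept in 3 groups: 23 genes of sterol synthesis and its control, 13 genes that build or activate fatty acids, and 13 genes of fatty acid oxidation with its nuclear receptors. Total RNA came from HEK-293T, an established human line of embryonic kidney origin, and was hybridised to 2 Affymetrix arrays that read transcripts near their 3′ end. One array is from cells transfected with a miR-194 mimic and 1 from cells transfected with a negative control mimic, each at 50 nM for 48 h in serum-containing medium, and untransfected cells were not analysed here. A mimic is a synthetic small RNA duplex that loads the silencing complex as the natural microRNA does. Each group is a single array, so no test between the conditions exists, and differences are described by size. A difference between the cultures, the labelling reactions or the arrays cannot be told apart from an effect of the mimic.

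Cholesterol is made from acetyl-CoA through mevalonate and squalene. The sterol regulatory element binding proteins, held in the endoplasmic reticulum by the INSIG proteins and escorted out by SCAP when sterols are low, switch on this pathway and most of fatty acid synthesis. Fatty acids are degraded mainly in mitochondria, where they enter as carnitine esters and are shortened in repeated rounds of oxidation, and the PPAR receptors activate many of these genes. A microRNA lowers transcripts that pair with its seed, and miR-194 is abundant in hepatocytes and in the epithelium of the gut.

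The mature sequence of miR-194-5p from RefSeq (GRCh38.p14) is shown because the mimic is named for this microRNA, with the seed, bases 2 to 8, in capitals. The labels do not say which arm of the hairpin the mimic carries, and pairing of the seed with 3′ untranslated regions was not analysed here.
hsa-miR-194-5p: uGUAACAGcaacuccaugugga

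Of the 49 genes, 44 had at least 1 probe set assigned to a single gene, with 111 probe sets between them. CYP51A1, ELOVL1 and FADS1 are read here only by probe sets assigned to several genes and were left out, and FDFT1 and ACSL3 were not analysed here. Signals under the median of an array, 68.6 for the control mimic and 66.8 for miR-194, were raised to that median, and probe sets at this floor on both arrays were dropped. MVD, which decarboxylates mevalonate diphosphate, was the only gene lost by this filter. The other 43 genes kept 96 probe sets. Each gene is represented by its brightest kept probe set, and for all 43 that probe set lay above the floor on both arrays.

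Every difference is the log2 signal of the miR-194 array less that of the control array, as scaled by the authors, so values above 0 mean a higher signal with miR-194. The value after the ± sign, called the probe set error, is not a replicate error. It is the error of a single probe set, derived from the standard deviation of the difference between the brightest pair of probe sets of a gene. Over the 6456 genes with such a pair it was 0.38 at low, 0.31 at middle and 0.27 at high signal. The difference between the probe sets of a pair spreads wider than this error. The variation between cultures is left out. Over all 12769 genes that passed the filter the median difference was 0.02, and the central 95% ran from -0.87 to 0.62.

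Most of the lipid genes stood close to equal on the arrays. The median difference of the 43 genes was 0.10, and 28 lay above 0 (65.1%), beside 52.5% of all genes. These shares are not matched for signal. Over all kept probe sets the median was 0.07 at high, 0.01 at middle and 0.00 at low signal. Over the kept probe sets of the lipid genes it was 0.11, 0.05 and 0.13. The part of signal in the share above 0 was not tested. ACSL4, STARD4 and ACADM were lower by 1.5-fold or more with miR-194 (6.98% of the 43), beside 7.36% of all genes. TM7SF2 and PPARA were higher by 1.5-fold or more (4.65%), beside 3.02% of all genes. Both shares of the lipid genes are thus near those of all genes. None reached 2-fold in either direction, beside 1.42% of all genes lower and 0.446% higher. For 29 of the 43 genes the difference was smaller than the probe set error, and the 5 genes just named were the ones beyond 2 such errors. The same counts were not made over all genes, so neither count sets the lipid genes apart.

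**Figure D1:**
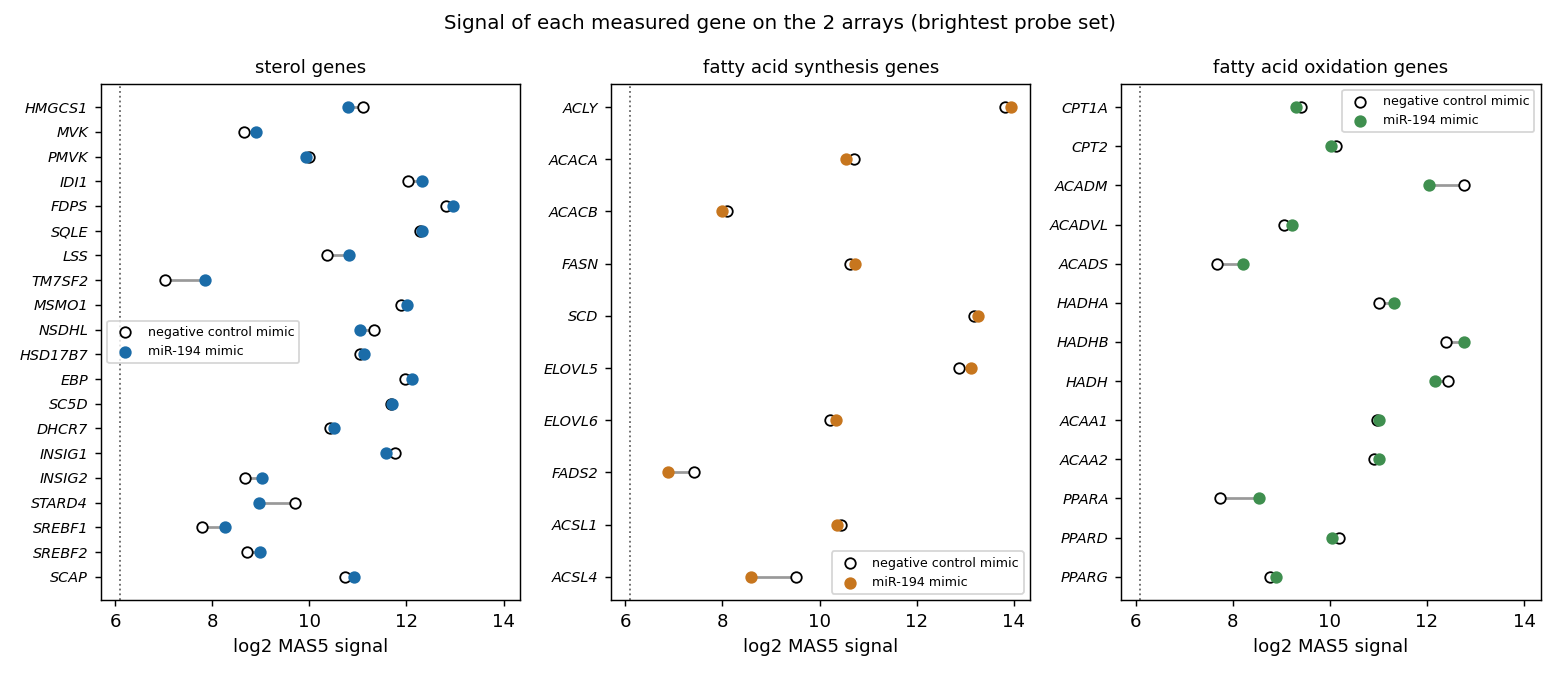
Deposited log2 MAS5 signal of the brightest probe set of each of the 43 measured genes on the 2 arrays, open circles for the control mimic and filled circles for the miR-194 mimic. The dotted line is the floor of the control array, and the wide gaps belong to STARD4, ACSL4 and ACADM (lower with miR-194) and to TM7SF2 and PPARA (higher).

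The sterol genes were the group with the most members above 0. Of 20 measured, 15 were higher with miR-194 and 5 lower, the median was 0.13, and differences ran from -0.74 to 0.82. The quartiles of the group were at -0.01 and 0.28. STARD4 was the single sterol gene lower by 1.5-fold and TM7SF2 the single one higher, which is 5.00% in each direction beside 7.36% and 3.02% of all genes.

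The enzymes of the mevalonate arm differed by less than 1.5-fold on their brightest probe sets, with a median of 0.14 over 5 genes. HMGCS1, which condenses acetyl units into HMG-CoA, had signals of 2197 on the control array and 1780.5 on the miR-194 array, a difference of -0.30 ± 0.27. Its dimmer probe set went the other way, from 127 to 215, a difference of 0.75 ± 0.38. The direction of HMGCS1 therefore depends on which probe set is read. MVK, the mevalonate kinase, had signals of 404 and 475 on its brightest probe set (0.23 ± 0.38). The MVK probe sets were the most divided of all the lipid genes, with another at -0.33 and the dimmest at 1.27, on signals of 96.2 and 231. PMVK, the kinase of the next step, had signals of 1020.4 and 977, so it was nearly level.

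The enzymes that close this arm were bright and slightly higher. IDI1, the isomerase of the isoprenoid unit, had signals of 4166 and 5099.9 (0.29 ± 0.27), and its 4 probe sets all lay above 0, from 0.03 to 0.71. FDPS, which joins isoprenoid units into farnesyl diphosphate, had signals of 7234 and 7959 on its single probe set (0.14 ± 0.27). Neither difference exceeded 2 probe set errors.

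In the sterol arm, from squalene to cholesterol, 8 of 9 measured enzymes lay above 0 and 6 of these by less than 0.14, which is within the probe set error. SQLE and SC5D, at 0.03 and 0.01, were each at -0.01 when the arrays were scaled by loess. SQLE, the squalene epoxidase and a rate-limiting step, had signals of 4976 and 5091, a difference of 0.03, with other probe sets between -0.19 and 0.39. LSS, which closes the ring to lanosterol, had signals of 1313 and 1795, a difference of 0.45 ± 0.31 or 1.37-fold. The next LSS probe set was near level, at 0.08. The dimmest was under the floor with the control mimic, with deposited signals of 52.4 and 74.1, so the floor sets the size of its value of 0.11. LSS is thus higher on all 3 probe sets. The difference on the brightest was beyond the probe set error but within 2 such errors.

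TM7SF2, a sterol reductase of the endoplasmic reticulum, had the highest difference of all 43 genes. Its single probe set, 210130_s_at, had signals of 131 on the control array and 232 on the miR-194 array, a difference of 0.82 ± 0.38 or 1.77-fold. At this low signal the gene is lost when the floor is set at the 75th percentile, and its probe set is of a type designed on sequence shared between transcripts. TM7SF2 has no other probe set here, so this value stands alone.

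The remaining sterol arm enzymes were flat. MSMO1, the methylsterol oxidase, was at 0.12, HSD17B7, a sterol ketone reductase, at 0.10, and SC5D, the sterol desaturase, at 0.01, each on a single kept probe set. DHCR7, which makes the last reduction, had probe sets at 0.08 and 0.13. EBP, the sterol isomerase, had signals of 4023 and 4417 (0.13 ± 0.27), while its 2 dimmest probe sets were at -0.27 and -0.48. NSDHL, which works with MSMO1 on the methyl groups of lanosterol products, was the single enzyme of this arm below 0. It had signals of 2574 and 2097 (-0.30 ± 0.27), and its other, also bright probe set was level at 0.02.

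The genes that sense and move sterols held both ends of the range of this pathway apart from TM7SF2. STARD4, a soluble protein that carries cholesterol between membranes, had signals of 831 on the control array and 498 on the miR-194 array on its single probe set, 226390_at. Its difference was -0.74 ± 0.31, or 1.67-fold, and 96.0% of all genes had a higher one. With the other scalings STARD4 stayed between -0.74 and -0.70. Other floors and probe set rules could not change it, because its single probe set lay above every floor used.

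The transcription factors and their escort all lay above 0 on their brightest probe sets. SREBF1, which encodes the factor best known for driving fatty acid synthesis, had signals of 222 and 309 (0.48 ± 0.38). Its other probe set was under the floor on the control array, with deposited signals of 31.4 and 67.9, so the floor sets its value of -0.02 and the sign. SREBF2, whose product drives mainly cholesterol synthesis, had signals of 418 and 508 on its brightest probe set (0.28 ± 0.38). Its dimmer probe sets differed by more, at 0.39 and 0.73, so all 3 were higher with miR-194. SCAP had signals of 1713 and 1935 (0.18 ± 0.31).

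The INSIG genes did not share a direction. INSIG1, itself a target of the pathway it restrains, had signals of 3466 and 3067 (-0.18 ± 0.27), and its probe sets ran from -0.18 to 0.56. INSIG2 had signals of 406 and 524 on a single probe set (0.37 ± 0.38). Both differences lie within 1 probe set error.

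**Figure D2:**
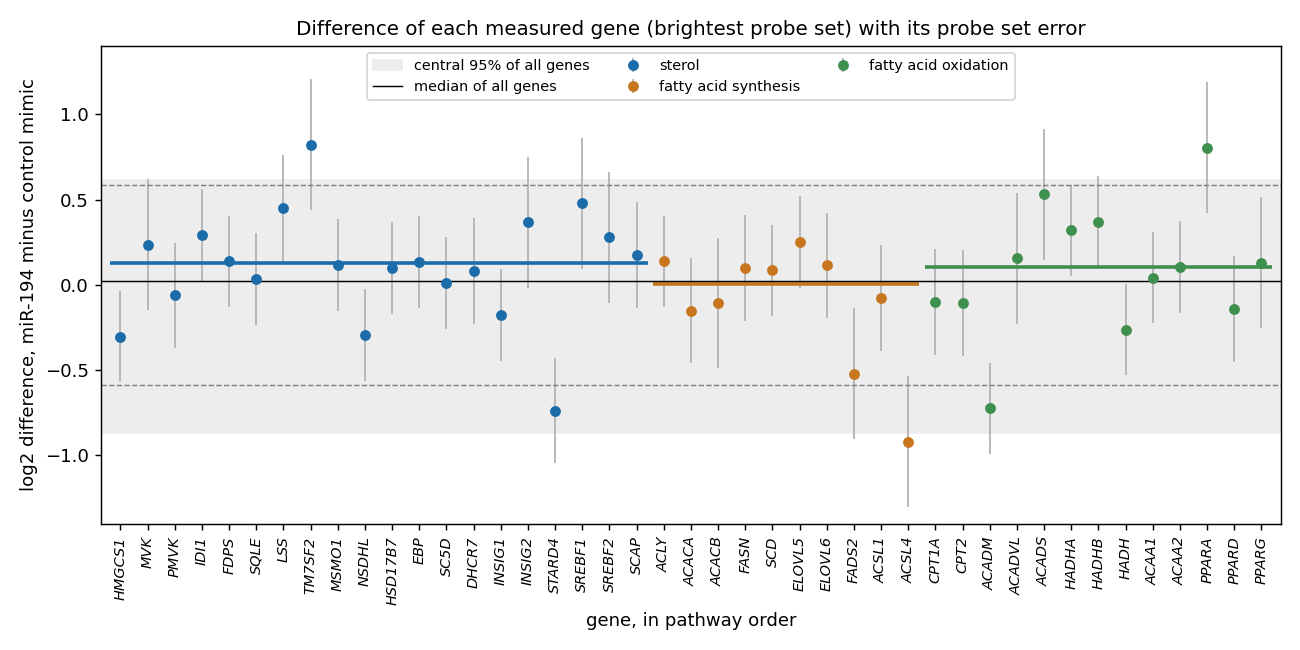
Log2 difference (miR-194 mimic minus control mimic) of the brightest probe set of each of the 43 measured genes in pathway order, with bars of 1 probe set error, dashed lines at 1.5-fold and coloured lines at the group medians. The sterol median is 0.13, the synthesis median 0.00 and the oxidation median 0.10, against 0.02 for all genes, and 5 genes lie outside the dashed lines.

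Promoter windows, 250 bases before to 50 after each annotated start, were searched on both strands for motifs that sterol-regulated promoters are known for. RefSeq (GRCh38.p14) gave 68 such windows for 45 of the 49 genes. The NF-Y motif CCAAT was in 18 of 27 sterol windows (66.7%), 11 of 21 fatty acid synthesis windows (52.4%) and 4 of 20 oxidation windows (20.0%), beside 34.6% of all 35116 windows. The Sp1 motif GGGCGG was in 25, 14 and 10 of these windows, beside 45.0% of all. The sterol regulatory element, searched as TCACNCCAC, was in 1 sterol window, that of SREBF2, and in 1 of 5 windows of ACSL1, beside 1.13% of all. The E-box CACGTG was in 5, 1 and 0 windows (7.26% of all), and the PPAR response element, searched as a direct repeat of its core with 1 base between, was in none of the 3 groups (0.0228% of all). Windows of the same gene can overlap, and a match is a string of letters, not a measured site. A missing match likewise does not show that a site is absent. A relation of the motifs to the direction of a gene was not tested.

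The window of SREBF2 is shown because it holds the match to the sterol regulatory element and all 3 SREBF2 probe sets were higher, and that of STARD4 because it was the lowest sterol gene. Capitals mark TCACNCCAC, CCAAT and GGGCGG on either strand, and adjacent matches can run together. The SREBF2 window lies at chr22:41832855-41833154 on the plus strand and the STARD4 window at chr5:111512486-111512785 on the minus strand.
SREBF2: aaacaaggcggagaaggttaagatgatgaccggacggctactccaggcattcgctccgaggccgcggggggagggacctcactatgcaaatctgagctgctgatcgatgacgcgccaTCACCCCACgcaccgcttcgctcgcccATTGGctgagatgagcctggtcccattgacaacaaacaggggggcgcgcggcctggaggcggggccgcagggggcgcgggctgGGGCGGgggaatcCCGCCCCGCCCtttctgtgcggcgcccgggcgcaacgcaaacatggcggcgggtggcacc
STARD4: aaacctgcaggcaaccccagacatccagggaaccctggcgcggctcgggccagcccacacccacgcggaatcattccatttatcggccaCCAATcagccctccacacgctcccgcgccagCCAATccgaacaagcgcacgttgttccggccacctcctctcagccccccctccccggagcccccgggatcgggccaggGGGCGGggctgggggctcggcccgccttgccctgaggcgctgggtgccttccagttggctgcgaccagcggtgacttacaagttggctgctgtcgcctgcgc
The SREBF2 window holds 1 match to the sterol regulatory element, 1 to CCAAT and 3 to GGGCGG. The STARD4 window holds 2 matches to CCAAT and 1 to GGGCGG, and none to the sterol regulatory element.

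The genes of fatty acid synthesis were balanced around 0. Of 10 measured, 5 lay above 0 and 5 below, the median was 0.00, and differences ran from -0.92 to 0.25. ACSL4 was lower by 1.5-fold (10.0% of the 10) and no gene was higher by that size, beside 7.36% and 3.02% of all genes. The enzymes of chain building were the flattest set: ACLY, ACACA, ACACB and FASN lay between -0.15 and 0.14.

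ACLY, which supplies cytosolic acetyl-CoA from citrate, had signals of 14330.4 and 15763 (0.14 ± 0.27) and other probe sets at 0.14 and 0.36. ACACA, the carboxylase that makes malonyl-CoA for synthesis, had signals of 1662 and 1497 (-0.15 ± 0.31), with its dimmer probe set at 0.23. ACACB, the mitochondrial form whose malonyl-CoA restrains fatty acid import, had signals of 274 and 254. All 4 kept ACACB probe sets were slightly lower, from -0.34 to -0.06, and this gene and CPT2 were the only ones of 27 with several probe sets that were all below 0. FASN, the fatty acid synthase, had signals of 1581 and 1695 (0.10 ± 0.31), while a probe set just above the floor was at 0.67.

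The elongation and desaturation genes had a median of 0.10 over 4 measured. SCD, which puts the double bond into saturated acyl-CoA, had signals of 9323 and 9883 on its brightest probe set (0.08 ± 0.27). Its dimmer probe sets differed by more, at 0.20, 0.59 and 0.61, all higher, while the brightest was at -0.01 with loess scaling. ELOVL5, which extends polyunsaturated fatty acids, had signals of 7445 and 8861 (0.25 ± 0.27), and its next probe set was at 0.45. Its dimmest kept probe set went the other way, at -0.52. That probe set was under the floor with miR-194, so the floor sets the size of its value. ELOVL6, which extends saturated chains, had signals of 1191 and 1288 (0.11 ± 0.31), with other probe sets at -0.11 and -0.41.

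FADS2, the desaturase that opens polyunsaturated fatty acid synthesis, had signals of 170.3 and 119 on its single kept probe set. Its difference of -0.52 ± 0.38, or 1.44-fold, was below 1.5-fold and rested on a shared-sequence probe set of low signal. FADS2 was the only gene of this subset below 0.

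The acyl-CoA ligases, which activate fatty acids for every later use, were both below 0 on their brightest probe sets. ACSL4, the form that prefers arachidonic acid and feeds polyunsaturated fatty acids into membrane lipids, had signals of 729 on the control array and 386 on the miR-194 array on probe set 202422_s_at. The difference of -0.92 ± 0.38, or 1.89-fold, was the lowest of the 43 genes, and 98.0% of all genes had a higher one. The other 2 ACSL4 probe sets were under the floor on both arrays, so this value rests on 1 probe set, which is of a shared-sequence type. ACSL1 had signals of 1386 and 1313 (-0.08 ± 0.31), and its dimmer probe set was higher, from 368 to 580.4 (0.66 ± 0.38).

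The oxidation genes held a gene past 1.5-fold at each end. Of 13 measured, 8 lay above 0 and 5 below, the median was 0.10, and differences ran from -0.72 for ACADM to 0.80 for PPARA. By count, 1 of 13 was lower and 1 higher by 1.5-fold (7.69% each), beside 7.36% and 3.02% of all genes.

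The carnitine palmitoyltransferases that carry fatty acids into mitochondria were nearly level. CPT1A, the regulated entry step at the outer membrane, had signals of 679 and 633 (-0.10 ± 0.31), and its other probe sets were at -0.05 and 0.11. CPT2, its partner at the inner membrane, had signals of 1112 and 1034 (-0.10 ± 0.31).

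The acyl-CoA dehydrogenases, which open each round of oxidation for chains of different length, did not move together. ACADM, for medium chains, had signals of 6962 on the control array and 4214 on the miR-194 array on its single probe set, 202502_at. Its difference of -0.72 ± 0.27, or 1.65-fold, was lower than that of 95.8% of all genes. ACADS, for short chains, had signals of 205 and 297 (0.53 ± 0.38), and ACADVL, for very long chains, 532 and 593 (0.16 ± 0.38). ACADM was thus lower than both of its relatives. With the other scalings it lay between -0.78 and -0.69, while other floors and probe set rules could not change its single bright probe set.

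The subunits of the mitochondrial trifunctional protein, which completes the round for long chains, were both somewhat higher with miR-194. HADHA, the alpha subunit, had signals of 2062 and 2573 on its brightest probe set (0.32 ± 0.27), and its other probe sets were at 0.30 and 0.39. HADHB, the beta subunit, had signals of 5374 and 6949.9 on its single probe set (0.37 ± 0.27). All 4 probe sets of the pair lay between 0.30 and 0.39, which is above the median of all genes and below 1.5-fold. The genes lie head to head on chromosome 2: their annotated starts are 307 bases apart on opposite strands, and their promoter windows overlap. The HADHB window, chr2:26244689-26244988 on the plus strand, is shown because it contains this shared stretch, with its 2 matches to GGGCGG, both on the opposite strand, in capitals.
HADHB: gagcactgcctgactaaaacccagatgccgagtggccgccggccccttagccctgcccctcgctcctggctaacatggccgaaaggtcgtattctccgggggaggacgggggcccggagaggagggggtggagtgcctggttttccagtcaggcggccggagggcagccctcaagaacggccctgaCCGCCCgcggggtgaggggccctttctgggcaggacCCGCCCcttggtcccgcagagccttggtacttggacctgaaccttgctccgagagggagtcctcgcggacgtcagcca
The window holds no match to CCAAT, the sterol regulatory element or the PPAR response element.

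The enzymes of the later steps had a median of 0.04. HADH, the dehydrogenase for short and medium hydroxyacyl chains, had signals of 5524 and 4606 on its brightest probe set (-0.26 ± 0.27). Its other probe sets, also bright, were at 0.30 and 0.25, so the direction of HADH is not settled by these arrays. The thiolases, which release acetyl-CoA, were level: ACAA1, of the peroxisome, was at 0.04, and ACAA2, of mitochondria, at 0.10. A dim ACAA2 probe set was under the floor with the control mimic and at least 1.74-fold higher with miR-194.

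Of the PPAR receptors, PPARA alone passed 1.5-fold on its brightest probe set. PPARA, the receptor best known for inducing fatty acid oxidation, had signals of 214 and 374 on probe set 226978_at, a difference of 0.80 ± 0.38 or 1.74-fold. Its 4 other kept probe sets did not show this size and lay between -0.33 and 0.21. With the mean over its probe sets PPARA was at 0.19, under 1.5-fold. PPARD had signals of 1159.6 and 1049.9 (-0.14 ± 0.31). Its other kept probe sets went the other way, at 0.12, 0.13 and 0.62, the last under the floor with the control mimic. The direction of PPARD therefore depends on the probe set. PPARG, the adipocyte receptor, had signals of 437 and 478 (0.13 ± 0.38).

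**Figure D3:**
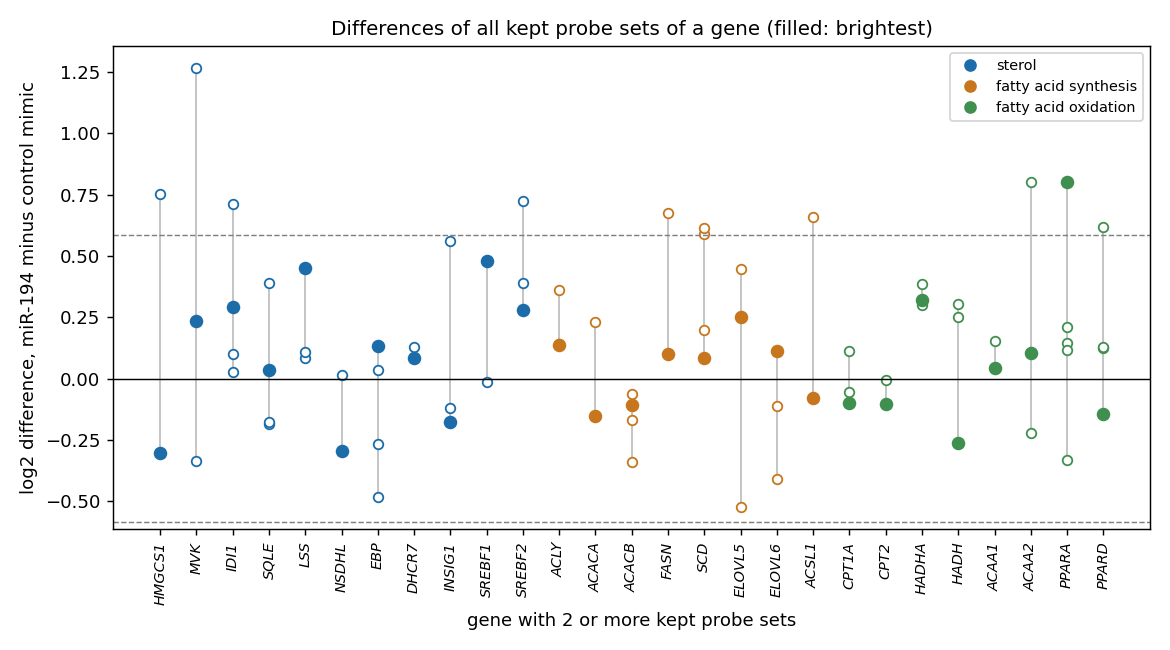
Log2 difference (miR-194 mimic minus control mimic) of every kept probe set for the 27 genes with 2 or more, filled for the brightest and open for the others, with dashed lines at 1.5-fold. Most probe sets above the upper dashed line are open circles, and the widest spread is that of MVK, from -0.33 to 1.27.

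Reading all kept probe sets shows how far a gene's value depends on the probe set chosen. Of the 27 lipid genes with 2 or more, 16 (59.3%) had probe sets on both sides of 0, beside 54.0% of all such genes. SREBF1 is among the 16 only through the probe set whose sign the floor sets. Another 9 (33.3%) were higher on all of theirs and 2 (7.41%) lower on all, beside 25.8% and 20.2% of all genes. Of the 96 probe sets, 12 (12.5%) were higher by 1.5-fold or more, beside 5.08% of all kept probe sets, and 3 (3.12%) were lower, beside 7.99%. All 12 lay in the low signal class, a mean signal up to 601, where they were 24.0% of 50 probe sets, beside 7.32% of all probe sets of that class. In the same class 1 of the 50 was lower by that size, beside 9.23% of all its probe sets.

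These 12 probe sets belong to 11 genes: HMGCS1, MVK, IDI1, TM7SF2, SREBF2, FASN, SCD, ACSL1, ACAA2, PPARA and PPARD. For 10 of the 12 a brighter probe set of the same gene differed by less, and only those of TM7SF2 and PPARA stood for their gene. Of the 12, 9 were of a shared-sequence type, as were 542 of the 1053 higher probe sets of that class over all genes. The part of low signal and of probe set type in these differences was not tested.

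**Figure D4:**
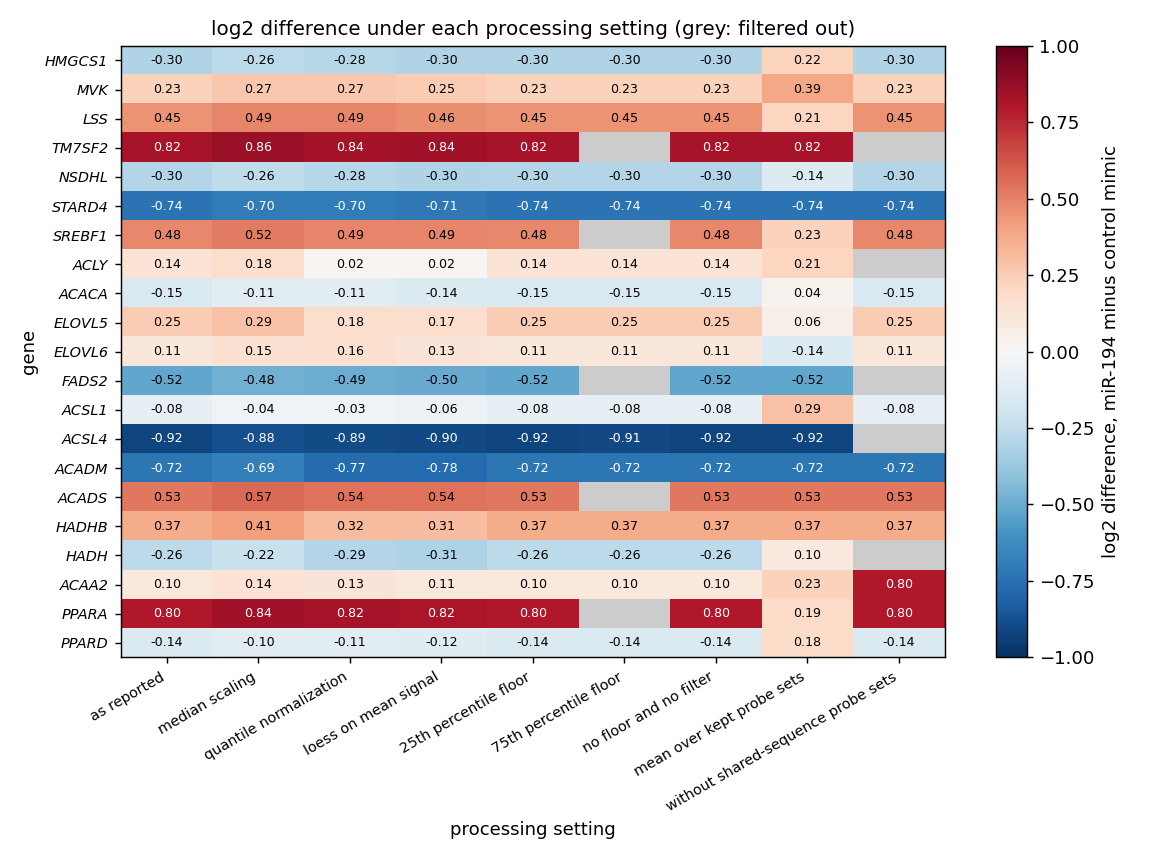
Log2 difference of the 21 genes singled out (past 1.5-fold, at an end of their group, or with divided probe sets) under the reported setting and 8 others, red for higher and blue for lower with miR-194, grey where the gene was filtered out. STARD4, ACSL4 and ACADM, each on a single kept probe set, stay between -0.92 and -0.69 wherever measured. With the mean over probe sets PPARA drops to 0.19, and HMGCS1, ACACA, ELOVL6, ACSL1, HADH and PPARD change sign.

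Other genes of the same pathways, from a list of 62 that included sterol transport, elongation, triglyceride synthesis and auxiliary oxidation enzymes, differed little. Of the 52 measured, none was lower and 1 (1.92%) was higher by 1.5-fold, beside 7.36% and 3.02% of all genes. Their medians were 0.06 over 14 sterol genes, 0.13 over 18 synthesis genes and 0.00 over 20 oxidation genes.

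As a check of the cell type, the 8 markers of embryonic kidney epithelium reported here passed the filter, among them PAX2 and EYA1. Markers of cells with a high lipid turnover were mostly under the floor: 1 of 7 hepatocyte markers (CYP3A4), 2 of 6 adipocyte markers (CIDEC and LPL) and 0 of 6 enterocyte markers passed. Of the fibroblast and macrophage markers, 4 of 6 and 1 of 5 passed. No marker of these lists that passed differed by 1.5-fold between the arrays.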

How the data were processed

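RNA of 2 HEK-293T cultures was measured on 1 array each, so the number of arrays limits the precision. The authors deposited log2 signals for 54675 probe sets, made with MAS5 per the submitters' processing notes; its version, the scaling target and the log base are not stated there. As powers of 2, the deposited values of either array had the same 2% trimmed mean, 500.1, which a common scaling gives only on a log2 scale. Probe sets with 1 gene in the platform annotation numbered 41097, and 41043 matched RefSeq through their Entrez identifier. The 1801 with several genes and 62 array controls were left out.

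Signals were floored at each array's median, probe sets with a mean above the mean floor were kept, and the brightest stood for its gene (Python 3.11.15, pandas 2.3.3, statsmodels 0.14.6 for loess with a span of 0.3). The method was tested on simulated data. The planted differences were larger than those of the lipid genes and were not placed in dim genes. The simulated noise was smaller than the probe set error, and a planted difference was the same in every probe set of a gene. That test therefore does not cover small differences, low signals or genes with divided probe sets. Genes singled out were those past 1.5-fold, the 3 highest and lowest of each group, and those with probe sets on both sides of 0 and 1 past 1.5-fold. Members, lists and settings were chosen with earlier results of these data known. Alternatives were other scalings, floors, probe set rules and a 2-fold threshold. Of the cell type markers, 1 is not reported here.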

Additional observations from a re-analysis of the deposited data

How the results depend on the processing

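Each group holds 1 array, so no value has a replicate check, and no array could be left out. No paired analysis was possible because each group holds 1 array. Under the 8 other settings the sterol median lay between 0.10 and 0.16 and the fatty acid synthesis median between -0.08 and 0.09. The oxidation median was 0.24 without shared-sequence probe sets, which left 10 of 13 genes, and between 0.04 and 0.16 under the other settings. STARD4 and ACADM were lower by 1.5-fold under all 8 and ACSL4 under the 7 that measured it. Each rests on a single kept probe set, so for STARD4 and ACADM only the scalings could change the value. For ACSL4 the 75th percentile floor could change it as well. The count of higher lipid genes was 0 with the 75th percentile floor, which removes TM7SF2 and PPARA, and 1 with the mean over probe sets. With a 2-fold threshold 0 lipid genes were lower and 0 higher. MVD, under the floor on both arrays, passed 1.5-fold lower only with the lower floor or none. Over all genes, 940 were lower and 385 higher by 1.5-fold. These counts were 2386 and 1588 with the 25th percentile floor, 489 and 59 with the 75th, 3512 and 2607 with none, and 181 and 57 at 2-fold. Of 325 values of the 43 genes under other settings, 317 moved by less than the probe set error and 8 by more. Many of the 317 could not move. The brightest probe sets of all 43 genes lay above the floor, so a lower floor or none left every value unchanged. The mean cannot change a gene with a single kept probe set. All 8 larger moves came with the mean over probe sets or without shared-sequence probe sets. Among the other scalings, loess alone changed signs, those of SC5D, SCD and SQLE. The mean over probe sets changed the signs of HMGCS1, EBP, INSIG1, ACACA, ELOVL6, ACSL1, HADH and PPARD.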

Other observations

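Genomic length differed between the groups: the median was 21.9 kb for the sterol genes, 76.3 kb for the fatty acid synthesis genes and 45.3 kb for the oxidation genes, beside 29.8 kb for all genes. The rank correlation of length with the log2 difference (Spearman's rho) was -0.14 over the 43 lipid genes and -0.22 over 12755 genes. Genes on the same 2 arrays are not independent replicates, so both are descriptions. Of the genes lower by 1.5-fold, STARD4 spans 16.5 kb, ACADM 39.0 kb and ACSL4 91.9 kb, beside a median of 25.9 kb over the 43. Of those higher by 1.5-fold, TM7SF2 spans 4.4 kb and PPARA 93.2 kb. The part of gene length in these differences was not tested.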
